A study of Mus musculus with 2 samples.

Results

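The Arg1 and Mmp12 tumour macrophages were the barcodes of MC38 tumours that carried the C1q genes of mature macrophages together with UMIs of Arg1 or Mmp12. UMIs are molecules counted through their molecular identifiers. A barcode belonged to the class when it had at least 200 genes, at most 20% mitochondrial UMIs, Lyz2, Ctss and Cd68 at 0.2% of UMIs or more, few T, NK or tumour cell UMIs, at least 3 UMIs of C1qa, C1qb and C1qc together, at most 1 UMI of the monocyte genes Ly6c2, Chil3 and Plac8, at least 2 UMIs of Arg1 and Mmp12 together, and at most 1 UMI of the division genes Mki67, Top2a, Ube2c and Birc5. The rule found 952 cells among 15852 kept barcodes, 613 in the control and 339 in the SHP099 library. The rule read the genes it names, so their levels are given here as description only.

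Both libraries came from tumours of MC38, a mouse colon carcinoma line, grown in the flank of C57BL/6 mice and dissociated without a sorting step that the labels mention. Treatment began 5 days after injection, at an average tumour size of 100 mm3, and lasted 14 days. The SHP099 group received the SHP2 inhibitor SHP099 at 5 mg/kg into the stomach each day, and the control group received PBS, although the labels also call that group untreated. There were 6 mice in each group and 1 library per group, and the labels do not say how many tumours a library holds. Every difference between the libraries below is therefore a difference between 2 libraries, with no replicate check, no p-value, and intervals that cover counting error only.

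Macrophages of a growing tumour derive largely from blood monocytes and take up different states in different places. Arg1 encodes arginase, which splits arginine into ornithine and urea and is a usual mark of macrophages in poorly oxygenated tumour tissue. Mmp12 encodes the macrophage elastase, Spp1 the secreted matrix protein osteopontin, Pf4 a platelet-type chemokine, and Trem2 a lipid-sensing receptor. Low oxygen stabilises HIF factors, which bind the core ACGTG in promoters, and oxidative or haem stress frees NRF2, which binds antioxidant elements with the core TGACNNNGC.

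Promoters that hold these cores are shown for 3 genes of the hypoxia and antioxidant lists used below, chosen for their motif and after their values were seen. Each is the 250 bases upstream of the start site in the RefSeq promoter table for GRCm38.p6, 5′ to 3′ on the gene's strand. Capitals mark the match to the core of the gene's own list, found on either strand. The Gclm promoter also holds 1 match to the hypoxia core, left in lower case. Bnip3, a mitophagy receptor, has a palindrome that holds the hypoxia core on both strands, on the minus strand at chr7:138909507-138909756. Gclm, a subunit of the enzyme that starts glutathione synthesis (chr3:122245307-122245556, plus strand), and Prdx1, a peroxidase (chr4:116685349-116685598, plus strand), have the antioxidant core read from the opposite strand.
Bnip3: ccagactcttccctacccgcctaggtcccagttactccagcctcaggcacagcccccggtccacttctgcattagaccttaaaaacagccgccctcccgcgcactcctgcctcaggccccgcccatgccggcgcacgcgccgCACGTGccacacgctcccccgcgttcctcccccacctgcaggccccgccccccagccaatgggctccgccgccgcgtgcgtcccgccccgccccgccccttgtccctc
Gclm: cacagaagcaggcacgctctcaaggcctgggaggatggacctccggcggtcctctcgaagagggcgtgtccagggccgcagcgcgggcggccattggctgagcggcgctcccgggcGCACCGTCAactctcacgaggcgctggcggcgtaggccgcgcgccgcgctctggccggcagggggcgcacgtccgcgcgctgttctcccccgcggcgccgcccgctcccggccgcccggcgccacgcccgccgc
Prdx1: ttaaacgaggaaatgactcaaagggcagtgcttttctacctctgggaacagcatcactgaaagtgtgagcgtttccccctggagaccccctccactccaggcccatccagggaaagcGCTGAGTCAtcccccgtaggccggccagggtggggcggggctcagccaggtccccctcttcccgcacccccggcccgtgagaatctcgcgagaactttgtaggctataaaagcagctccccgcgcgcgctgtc
Among 31 listed hypoxia and glycolysis genes, 29 had a promoter in the table and 18 of these (62.1%) held ACGTG, against 18.5% of 27025 genes. The antioxidant core was found in 4 of 14 genes of the NRF2, haem and iron list (28.6%), against 11.5% of all genes. That list also held ACGTG in 4 of 14 genes (28.6%). The antioxidant core was in 3 of 29 hypoxia genes (10.3%) and in 1 of 7 MHC class II genes (14.3%). ACGTG was in 0 of the 7 MHC class II genes. A match is a string of letters and not a bound site. The lists were chosen by known function, so these shares describe the lists and not the cells studied here. Hilpda, looked up too and not printed, had 0 matches to ACGTG at start site 1 and 1 match at start site 2.

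The libraries were of like size, with 8245 barcodes and 126218180 UMIs in control and 8263 barcodes and 112901642 UMIs in SHP099, of which 7952 and 7900 barcodes were kept. The median depth of the Arg1 and Mmp12 macrophages was 5403 and 5353 UMIs. The macrophage markers Adgre1, Csf1r, Fcgr1, Mertk and Apoe, which the rule did not use, were present at 10 UMIs or more in 1000000 UMIs of the class (CPM) in both libraries. The 10 T and NK cell markers summed to 7.62 in control and 10.2 CPM in SHP099. The 10 dendritic cell markers summed to 1286 in control and 1370 CPM in SHP099, with 1 and 2 of the 10 at 10 CPM or more. In C1q macrophages with fewer than 2 Arg1 and Mmp12 UMIs they summed to 1385 and 1944 CPM. The 8 neutrophil markers summed to 49.2 in control and 50.2 CPM in SHP099, with 2 of the 8 (S100a8 and Csf3r) at 10 CPM or more. S100a9, Retnlg, Ly6g and Camp had no UMI in either library, nor Cxcr2 in SHP099. The 8 MC38 tumour cell markers summed to 87.9 and 77.3 CPM, with Epcam at 0 in both. The 7 fibroblast markers summed to 62.7 in control and 170 CPM in SHP099. The libraries shared 100 deposited barcodes, among them 7 control and 3 SHP099 cells of the class, and no barcode was in the class in both.

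The Arg1 and Mmp12 macrophages made up a smaller share of the SHP099 library. They were 613 of 7952 kept barcodes in control, or 7.71% (exact binomial 95% interval 7.13 to 8.32), and 339 of 7900 in SHP099, or 4.29% (3.85 to 4.76). The ratio of SHP099 over control was 0.557 (0.489 to 0.633). Among all phagocytes, the barcodes left after the T, NK and tumour cell limits, the class held 22.8% and 12.3%. Among the non-dividing C1q macrophages with few monocyte UMIs, it held 613 of 1445 cells, or 42.4% (39.9 to 45.0), in control and 339 of 1333, or 25.4% (23.1 to 27.9), in SHP099, a ratio of 0.599 (0.537 to 0.669). The C1q macrophages below the threshold went the other way in number, with 832 cells in control and 994 in SHP099. All 3 denominators thus gave a ratio between 0.539 and 0.599. The class is cut at a number of UMIs, which depends on depth, and the median depth of these C1q macrophages was 4733 UMIs in control and 4322 in SHP099. Barcodes with 2000 UMIs or more were then drawn down to 2000 before the Arg1 and Mmp12 cut, with the other limits read at full depth. Barcodes below 2000 UMIs were left out, 18 control and 15 SHP099 cells of the class and 120 and 136 of the other C1q macrophages. The ratio of SHP099 over control among the C1q macrophages that stayed was 0.551 (0.474 to 0.642).

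**Figure D1:**
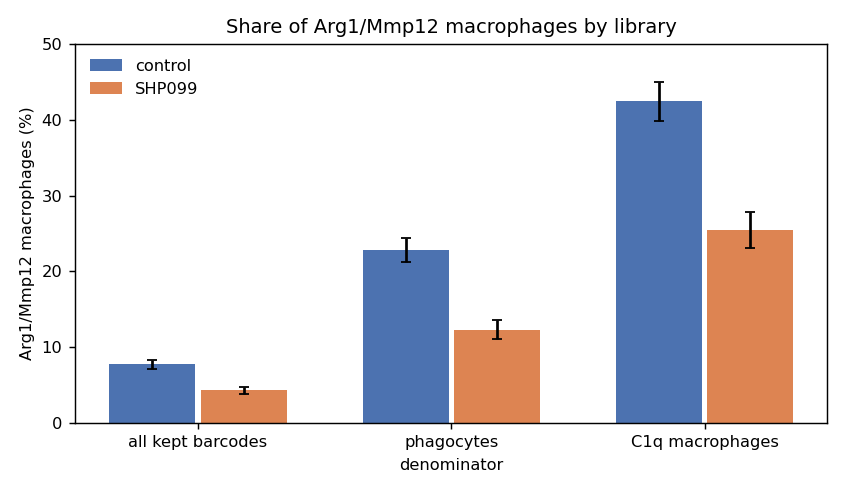
The bars give the percentage of Arg1 and Mmp12 macrophages among all kept barcodes, among phagocytes and among non-dividing C1q macrophages, with exact binomial 95% intervals, in the 1 control and the 1 SHP099 library. The control bar is the higher in each pair, from 7.71% against 4.29% of kept barcodes to 42.4% against 25.4% of C1q macrophages.

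Most of these cells carried Arg1. Arg1 without Mmp12 was found in 474 control cells (77.3%) and 249 SHP099 cells (73.5%). Both genes were found in 127 (20.7%) and 78 (23.0%) cells, and Mmp12 without Arg1 in 12 cells of each library. Cells with 5 Mmp12 UMIs or more numbered 47 in both libraries, which is 7.67% (5.69 to 10.1) of the control and 13.9% (10.4 to 18) of the SHP099 class. The number of cells with many Mmp12 UMIs was therefore equal while the number of cells with Arg1 alone was lower with SHP099.

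Arg1 (arginase, chr10:24915221-24927484, minus strand, GRCm38) stood at 1603 CPM (exact Poisson 95% interval 1561 to 1646) in the control class and at 1193 CPM (1145 to 1243) in the SHP099 class. A cell had a median of 5 Arg1 UMIs in control and 4 in SHP099, and at most 66 and 73. The log2 ratio of SHP099 over control was -0.43 (-0.50 to -0.36). T cells, which should lack it, held 4.66 and 1.39 CPM of Arg1. Mmp12 (macrophage elastase, chr9:7344381-7369499, plus strand) went in the other direction, at 298 CPM (280 to 317) in control, and 641 (606 to 678) in SHP099, a log2 ratio of 1.10 (0.99 to 1.23). Its UMIs were held by few cells: the median was 0 in both libraries, the highest cell had 135 UMIs in control and 147 in SHP099, and the 20 highest cells held 64.1% and 73.8% of them. The 20 highest cells held 17.9% and 26.9% of the Arg1 UMIs. With every cell counted alike the Mmp12 ratio was 0.78 and the Arg1 ratio -0.31.

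Of the other given markers, Spp1 was the higher in SHP099, at 978 in control and 1764 CPM in SHP099. Its 20 highest cells held 39.5% and 64.3% of its UMIs, and a single SHP099 cell had 409 UMIs, so the log2 ratio of 0.85 was 0.44 with cells counted alike. Pf4 stood at 1910 in control and 1674 CPM in SHP099, and Trem2 at 813 and 701 CPM. Both ratios, -0.19 and -0.21, were small beside that of Mmp12. After each cell was drawn down to 2000 UMIs, which left 595 control and 324 SHP099 cells and left out 18 and 15, Spp1 was found in 39.7% of control and 42.9% of SHP099 cells (53.2% and 54.0% at full depth). T cells drawn down alike had Spp1 in 8.68% and 11.9% of cells, after 132 control and 141 SHP099 cells with too few UMIs were left out. The median depth of all T cells was 2643 and 2357 UMIs. C1q macrophages below the threshold had Spp1 in 13.6% and 16.2% of cells, with 120 and 136 left out. Spp1 in these macrophages thus lay little above the T cell background. Pf4 was found in 70.1% and 69.4% of the class (85.2% and 83.2% at full depth) against 1.68% and 1.38% of T cells, and Trem2 in 74.5% and 73.5% (93.1% and 90.0%) against 0.560% and 0.459%.

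The first question beyond the rule was what else separated these cells from the other C1q macrophages of the same tumours, those with 0 or 1 UMI of Arg1 and Mmp12. The comparison was made within each library on summed UMIs. In control, 5.03% of 6802 genes tested were at least 1.5-fold higher in the class and 5.66% at least 1.5-fold lower. In SHP099 these were 7.45% and 8.65% of 7063 genes. The cells differed in depth, with medians of 4318 and 3967 UMIs in the comparison group. Their mitochondrial share was 2.45% and 3.76%, against 1.91% and 2.66% in the class.

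Genes of the response to low oxygen were higher in the class in both libraries. Of the 30 measured hypoxia and glycolysis genes, 23 were 1.5-fold higher and 0 lower in control, with a median log2 ratio of 0.76 (0.65 to 0.95, the 95% interval of the median over the list's genes), and 28 of 31 were higher and 0 lower in SHP099, with a median of 1.24 (1.12 to 1.69). The median over all genes was -0.04 and -0.03. Hilpda, which protects lipid droplets from breakdown, stood at 380 CPM in the control class against 121 CPM, and at 256 against 65.1 CPM in SHP099. Bnip3, whose promoter is printed above, stood at 364 against 136 CPM in control and at 280 against 64.3 CPM in SHP099, which are log2 ratios of 1.42 and 2.11. Egln3, an oxygen-sensing hydroxylase, led the list in both libraries. Hif1a and Kdm3a were among its 3 lowest members in both.

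Antioxidant, haem and iron genes followed with smaller differences. The list's median was 0.60 in control, with 8 of 15 genes higher and 1 lower, and 0.61 in SHP099, with 8 of 16 higher and 1 lower. Hmox1, the enzyme that breaks down haem, was at 393 against 118 CPM in control and at 291 against 84.8 CPM in SHP099, log2 ratios of 1.73 and 1.77. Gclm was at 50.4 against 16.6 CPM in control and at 47.1 against 25.3 CPM in SHP099. Prdx1 was at 1702 against 982 CPM and at 1983 against 1035 CPM. All 3 genes were thus higher in the class in both libraries. Haemoglobin and the other red cell marker, Alas2, summed to 1.47 CPM in the control class against 2.49 in the other C1q macrophages, and to 21.5 against 446 CPM in SHP099, and their part in these ratios was not tested.

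Secreted and surface proteins led the single genes. Spp1 was at 978 against 161 CPM in control, a log2 ratio of 2.60 (2.48 to 2.74), and at 1764 against 171 CPM in SHP099, a ratio of 3.37 (3.25 to 3.49). F13a1, the A chain of coagulation factor XIII, was at 93.5 against 16.6 CPM in control and at 153 against 16.6 CPM in SHP099. F13a1 is also a monocyte marker, and the class was limited to 1 UMI of 3 other monocyte genes. Clec4d, a C-type lectin receptor, had ratios of 1.97 and 2.63, and Adam8, a membrane metalloproteinase, 1.57 and 2.41. The chemokine genes Ccl6 and Ccl9 had ratios of 1.79 and 2.06 in control and of 2.18 and 1.77 in SHP099. Mmp13, a collagenase, stood at 63.0 against 18 CPM in control and at 78.3 against 19.5 CPM in SHP099. Pf4 was at 1910 against 546 CPM and at 1674 against 565 CPM, while Trem2 differed less, at 813 against 642 CPM and at 701 against 486 CPM. The remaining genes among the 12 highest were Rgcc, a cell cycle regulator, and the linker histone gene Hist1h1c, with ratios between 1.63 and 2.15.

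Arginine genes other than Arg1 were not higher as a group. The median of the arginine and polyamine list without Arg1 was 0.07 in control, with 3 of 14 genes higher and 0 lower, and 0.14 in SHP099, with 2 of 13 higher and 1 lower. Nos2, the inducible nitric oxide synthase that uses the same amino acid, was at 33.4 against 7.20 CPM in control and at 15.4 against 1.69 CPM in SHP099. Slc7a2, an arginine transporter, was at 57.7 against 13.9 CPM and at 51.7 against 19.5 CPM. Both were low in level and higher in the class in both libraries.

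Lipid-handling genes were mixed. In control 10 of 21 were higher and 2 lower, with a median of 0.44, and in SHP099 9 of 20 were higher and 3 lower, with a median of 0.47. Fabp5, a fatty acid carrier, was at 647 against 281 CPM in control and at 452 against 174 CPM in SHP099, and Gpnmb, a lysosomal glycoprotein, at 40.4 against 21.6 CPM and at 68.6 against 14.0 CPM. Of the growth, angiogenic and matrix factors, 4 of 18 were higher and 1 lower in control (median 0.40) and 9 of 19 higher and 2 lower in SHP099 (median 0.53). Fn1, fibronectin, had ratios of 1.42 and 1.18. Vegfa, the vascular growth factor, was at 437 against 331 CPM in control and at 317 against 182 CPM in SHP099.

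Antigen presentation and interferon genes lay lower in the class. The median of 8 measured MHC class II genes was -0.90 in control and -0.89 in SHP099, with 6 lower and 0 higher in each. H2-Eb1 and H2-Ab1, chains of the class II molecules, stood at 2115 against 4869 CPM and at 2933 against 6155 CPM in control, and at 1465 against 3519 CPM and 2135 against 4851 CPM in SHP099. Type I interferon-stimulated genes had a median of -0.41 in control, where 6 of 38 were lower and 0 higher, and of -0.61 in SHP099, where 22 of 38 were lower and 0 higher. The interferon-gamma list had medians of -0.33 and -0.41, with 4 of 21 and 7 of 20 genes lower and 1 higher in each. Cxcl9, the chemokine that draws T cells in response to interferon-gamma, was at 349 against 738 CPM in control and at 163 against 413 CPM in SHP099.

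The lowest single genes were Tmem176b and Tmem176a, a pair of membrane proteins that regulate inflammasome and dendritic cell function. Tmem176b was at 39.6 against 252 CPM in control and at 64.0 against 332 CPM in SHP099, log2 ratios of -2.66 and -2.37. Tmem176a had ratios of -2.94 and -2.34. Cd72, an inhibitory lectin, Clec4a3, another lectin, and Pou2f2, a transcription factor, had ratios from -1.10 to -1.41. Serpina3g, Ppfia4, Gk and Fam26f completed the 12, with ratios from -1.15 to -1.70. Genes of resident-like macrophages were lower in 4 and higher in 1 of the 12 measured in control, and in 4 and 1 of 13 in SHP099, with medians of -0.28 and -0.40.

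**Figure D2:**
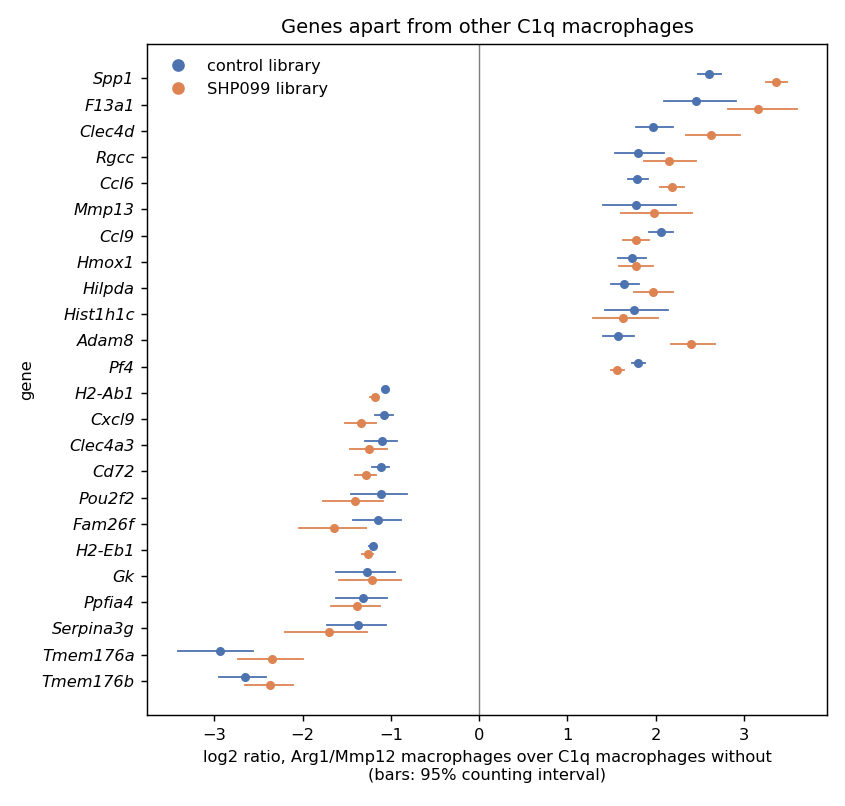
Each row is a gene, the horizontal axis is the log2 ratio of summed UMIs in Arg1 and Mmp12 macrophages over C1q macrophages without Arg1 or Mmp12, points are the 1 control and the 1 SHP099 library, and bars are 95% counting intervals. The 24 genes were the 12 highest and 12 lowest by both libraries, from Spp1 (2.60 and 3.37) to Tmem176b (-2.66 and -2.37), so the same side in both libraries is set by the choice.

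The hypoxia list was higher in each bin than in the one before it along the number of Arg1 and Mmp12 UMIs in both libraries, and other genes followed a less even course. Cells just outside it, with 1 UMI, numbered 217 in control and 162 in SHP099, and cells just inside it, with 2 UMIs, numbered 112 and 84. In control, the hypoxia list summed to 7477 CPM at 0 UMIs, 8801 at 1, 9764 at 2 and 18499 at 16 or more. In SHP099 it summed to 4824, 6839, 8189 and 18201 CPM in the same bins. The 2 libraries were thus near each other in the top bin and apart in the bottom one, where SHP099 was the lower. The MHC class II list summed to 37783 CPM at 0, 26534 at 1, 24384 at 2 and 11819 at 16 or more in control, and to 28174, 20200, 17451 and 6164 CPM in SHP099, where it was no lower between 2 UMIs and the bin of 4 to 7, at 17900 CPM. Spp1 was at 228 and 397 CPM on either side of the limit in control and at 247 and 599 CPM in SHP099, and reached 2018 and 5086 CPM in the top bin. Cxcl9 was at 692 and 395 CPM on either side of the limit in control and at 346 and 198 CPM in SHP099, its largest difference between neighbouring bins of the control library. Further up its course was uneven in SHP099, at 272 CPM with 4 to 7 UMIs, 14.8 with 8 to 15 and 84.9 in the top bin. Pf4 in control (1940 then 1496 CPM from 4 to 7 to 8 to 15 UMIs) and Hmox1 in SHP099 (118 then 56.9 CPM from 2 to 3 UMIs) also went down between neighbouring bins. Hmox1 in control was at 105 CPM at 0 UMIs, 152 at 1 and 105 at 2, so it was lower just inside the limit than just outside. Spp1 in SHP099 went from 599 to 523 CPM between 2 and 3 UMIs. It also went from 1117 CPM with 4 to 7 UMIs to 981 with 8 to 15. Tmem176b ran from 295 CPM at 0 UMIs to 9.0 CPM in the top bin of control and from 365 to 18.9 CPM in SHP099. The top bin held 121 control and 61 SHP099 cells with median depths of 6047 and 6765 UMIs, against 4256 and 3878 UMIs at 0, so depth moved along the same axis and its part was not tested here.

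**Figure D3:**
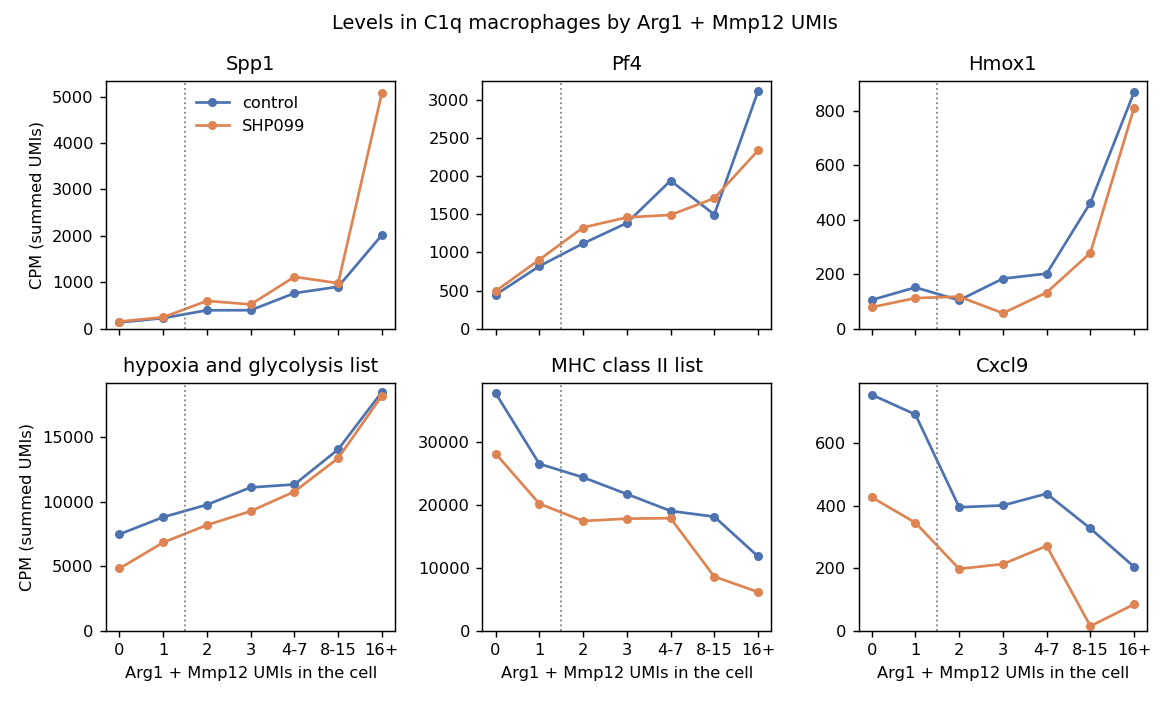
Each panel gives the summed level in CPM (vertical axis, linear, from 0) of a gene or gene list in C1q macrophages grouped by their Arg1 and Mmp12 UMIs (horizontal axis), with 1 line per library and a dotted line at the limit of the class. Spp1, Pf4, Hmox1 and the hypoxia list are highest in the top bin, where the hypoxia list is at 18499 in control and 18201 CPM in SHP099, and the MHC class II list is lowest there.

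Within the class, cells with Mmp12 differed from cells with Arg1 alone. This comparison was added after the data were seen, because the 12 cells per library with Mmp12 and no Arg1 were too few: between them and the Arg1-only cells, 34.3% of genes were 1.5-fold higher and 28.1% lower in control, and 32.7% and 27% in SHP099. In that thin comparison the medians of Arg1-only over Mmp12-only cells were 0.32 and -1.16 for the NRF2 list, -0.23 and -0.63 for MHC class II, and 0.89 and 0.24 for interferon-gamma, in control and SHP099. With cells drawn down to 2000 UMIs first, the control median of the NRF2 list was -0.30.

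The 139 control and 90 SHP099 cells with Mmp12 were set against the 474 and 249 without. In control, 9.08% of 6924 genes were 1.5-fold higher and 9.94% lower in cells with Mmp12, and in SHP099, 10.2% and 17.2% of 7200 genes. Median depth was 5573 and 5968 UMIs with Mmp12 and 5347 and 5124 without. The 8 neutrophil markers summed to 89.1 with against 37.1 CPM without Mmp12 in control and to 129 against 17.4 CPM in SHP099, with S100a9, Retnlg, Ly6g and Camp at 0 throughout, and their part in the differences below was not tested. The NRF2, haem and iron list had medians of 0.82 and 0.92, with 10 of 15 genes higher and 0 lower in each library. Prdx1 was at 3220 against 1240 CPM in control and at 3907 against 1186 CPM in SHP099, Gclm at 100.4 against 35.2 CPM and 92.7 against 28.2 CPM, and Hmox1 at 851 against 253 CPM and 495 against 207 CPM. Mt2, a metal-binding metallothionein, was at 846 against 130 CPM in control and at 747 against 247 CPM in SHP099. All 4 genes were higher with Mmp12 in both libraries. That agreement was set by the choice for Mt2, and Gclm and Prdx1 were named after their values were seen.

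Cd36 and Spp1 were higher in cells with Mmp12 in both libraries, which the choice of genes set for Cd36. Cd36, the scavenger receptor for oxidised lipid, was at 75.3 against 17.2 CPM in control and at 166 against 14.5 CPM in SHP099, log2 ratios of 2.10 (1.55 to 2.72) and 3.48 (2.81 to 4.30). The lipid list had a median of 0.07 in control, with 8 of 20 genes higher and 1 lower, and of 0.66 in SHP099, with 11 of 22 higher and 0 lower. The difference between the libraries was not tested. Spp1 was at 1521 against 813 CPM in control and at 4019 against 830 CPM in SHP099. The Spp1 level of cells without Mmp12 was thus near equal between the libraries, and that of cells with Mmp12 was not. Cxcl3, a neutrophil-attracting chemokine, and Mmp13 had ratios of 2.97 and 2.09 in control and 4.18 and 2.80 in SHP099. Tnfrsf9, a costimulatory receptor, F10, coagulation factor X, the interleukin-7 receptor gene Il7r and the ubiquitin ligase gene Rnf128 were also among the 8 highest, with ratios from 1.57 to 2.13. The hypoxia list had medians of 0.39 and 0.41, with 8 and 11 of 31 genes higher and 0 lower.

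The interferon, MHC class II and resident-like lists had medians below 0 in cells with over without Mmp12. The interferon-gamma list had medians of -0.67 and -0.60, with 12 of 21 and 10 of 19 genes lower and 1 higher in each library. The type I interferon list had medians of -0.63 in control, with 20 of 37 lower and 0 higher, and of -0.34 in SHP099, with 7 of 39 lower and 1 higher. Over all genes, 9.94% were lower and 9.08% higher in control, and 17.2% lower and 10.2% higher in SHP099. The type I count of lower genes in SHP099 was thus near the share over all genes. MHC class II had medians of -0.55 and -0.60, and the resident-like list of -0.52 and -0.20. The SHP099 median of the resident-like list was the smallest difference among these lists, and whether it departed from all genes was not tested. Cxcl9 was at 122 against 419 CPM and at 83.9 against 196 CPM, and its relative Cxcl10 at 119 against 265 CPM and 170 against 346 CPM. The adhesion molecule gene Vcam1, the Fc receptor-like gene Fcrls, the Notch target Hes1, Tmem173 (STING), Igfbp4 and Gatm, an enzyme of creatine synthesis, had ratios from -0.98 to -1.87. Adgre1, which encodes the macrophage marker F4/80, was at 110 against 211 CPM in control and at 105 against 209 CPM in SHP099.

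**Figure D4:**
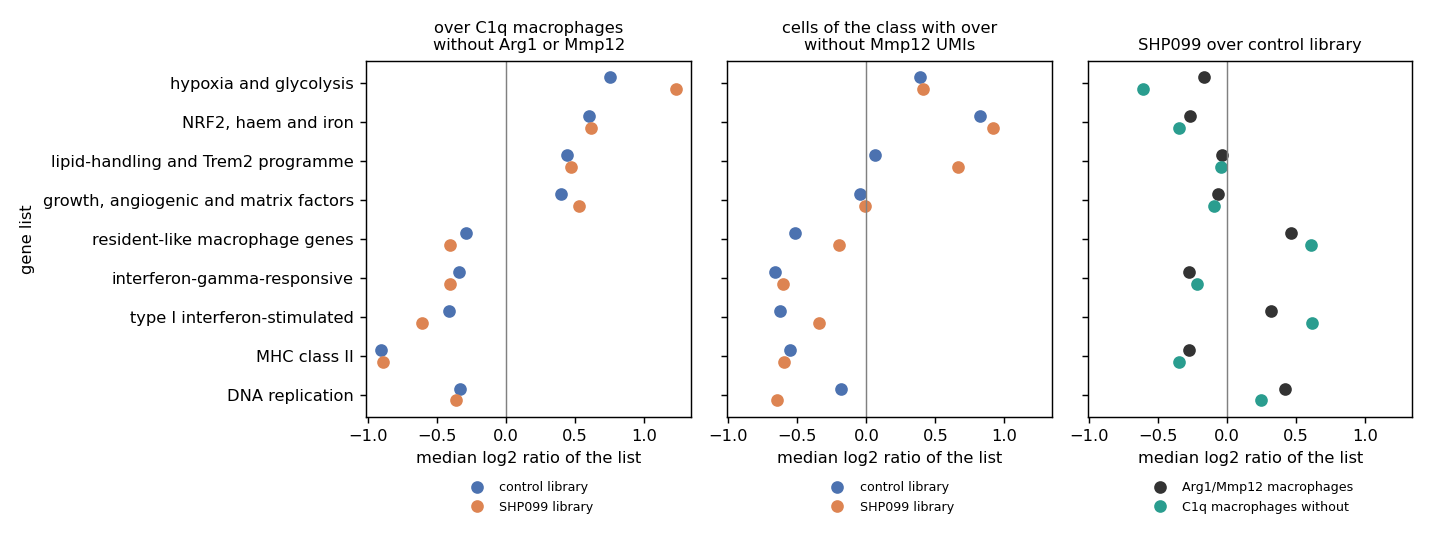
Each point is the median log2 ratio (horizontal axis) of a gene list (rows), for the class over C1q macrophages without Arg1 or Mmp12 (left), for cells of the class with over without Mmp12 (middle), and for SHP099 over control (right), in 1 library per group. The hypoxia list is highest on the left (0.76 and 1.24), the NRF2 list in the middle (0.82 and 0.92), and on the right the type I interferon list is at 0.32 in the class and 0.62 in the other C1q macrophages.

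The groups differ by treatment, so the class was next set side by side in the 2 libraries. Of 6881 genes tested in the Arg1 and Mmp12 macrophages, 470 (6.83%) were 1.5-fold higher and 235 (3.42%) 1.5-fold lower in SHP099. Higher genes made up 66.7% of these, and 53.5% when the libraries were scaled by median-of-ratios size factors in place of total UMIs. The C1q macrophages without Arg1 or Mmp12, taken as the nearest class, had 5.5% of 6908 genes higher and 3.59% lower, and phagocytes with both C1q and monocyte UMIs had 6.72% of 6826 genes higher and 5.11% lower. In sums over a class, another mix of cell states and another level per cell cannot be told apart. Ptpn11, which encodes SHP2, was at 28.1 in control and 26.1 CPM in SHP099. Of 19 measured genes of SHP2, its partners and growth factor receptors, 0 were past 1.5-fold, with a median of 0.03.

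Chemokines split. Ccl12, Ccl7 and Ccl2, which draw monocytes through CCR2, were at 446, 551 and 287 CPM in control and at 1108, 1219 and 599 CPM in SHP099, log2 ratios of 1.31 (1.22 to 1.41), 1.15 (1.06 to 1.23) and 1.06 (0.94 to 1.19). Ccl5, which draws T cells, was at 1452 in control and 562 CPM in SHP099, a ratio of -1.37 (-1.46 to -1.27). Cxcl9 was at 349 and 163 CPM, a ratio of -1.09, and Ccl8, another chemokine gene, at 1012 and 571 CPM. With the 3 subsets of the class weighted alike, which rests on the 12 cells per library with Mmp12 alone, the Cxcl9 ratio turned to 0.19. Over the chemokine list 4 of 17 genes were higher and 3 lower, with a median of -0.13. Ccl12 had a ratio of 1.55 and Cxcl9 of -0.84 in the other C1q macrophages, the same direction as in the class. After drawing down to 2000 UMIs, Ccl12 was found in 30.1% of control and 40.1% of SHP099 cells of the class (40.9% and 54.9% at full depth) and Cxcl9 in 25.7% and 15.1% (37.4% and 22.1%). In T cells Ccl12 was in 0 of 357 control cells, which allows up to 0.840% at that depth, and in 1.38% of SHP099 cells (1.64% and 3.06% at full depth).

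Cx3cr1, Ccr2 and some resident-like genes were higher in SHP099. Cx3cr1, the fractalkine receptor of monocytes and tissue macrophages, was at 184 in control and 399 CPM in SHP099, a ratio of 1.12 (0.97 to 1.27), and its share of cells after drawing down was 27.4% and 47.8% (49.9% and 68.1% at full depth), against 7.56% and 6.42% of T cells. Ccr2, the monocyte receptor for Ccl2 and Ccl12, was at 40.4 and 86.0 CPM. It is one of the monocyte markers, of which the 3 that were measured and not used by the rule (Vcan, Ccr2 and F13a1) were all higher, with a median of 1.08. The 8 monocyte markers summed to 169 in control and 284 CPM in SHP099, and their part in the resident-like differences was not tested. Of 13 measured resident-like genes, 4 (Gpr34, Sparc, Cx3cr1 and Fcrls) were higher and 0 lower, with a median of 0.46. Sparc stood at -0.085 when called doublets were left out. That list had a median of 0.60 in the other C1q macrophages, with 7 of 13 higher.

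Interferon genes also split by list. Type I interferon-stimulated genes had a median of 0.32 (0.19 to 0.49), with 9 of 38 higher and 0 lower, and Ifit3 was at 56.0 in control and 119 CPM in SHP099. Reads of Ifit3 and its near copy Ifit3b may be split between them. In the other C1q macrophages 20 of 38 were higher, with a median of 0.62. The interferon-gamma list had a median of -0.28 (-0.66 to -0.13), with 0 of 20 higher and 6 lower. It was -0.055 with the 3 subsets weighted alike. MHC class II had a median of -0.27 with an interval that includes 0 (-0.55 to 0.19), and 0 of 8 were past 1.5-fold in either direction. Nos2 was at 33.4 in control and 15.4 CPM in SHP099, and Cd274, the checkpoint ligand PD-L1, at 137 and 86.5 CPM. Tnf, the inflammatory cytokine, was at 58.6 and 28.7 CPM, while Il1b was at 445 and 427 CPM. Classical activation genes had a median of -0.31, with 1 of 17 higher and 3 lower. Ch25h, an interferon-induced cholesterol hydroxylase, was at 21.4 in control and 55.8 CPM in SHP099.

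Hypoxia genes differed less between the libraries in this class than in its neighbour, by count. Of 31 measured, 0 were higher and 2 lower in the class, with a median of -0.17 (-0.27 to 0.01). In the other C1q macrophages 0 were higher and 15 of 29 lower, with a median of -0.61. The difference between the classes was not tested. Slc2a1, the glucose transporter, was at 131 in control and 69.1 CPM in SHP099, and Vegfa at 437 and 317 CPM. The NRF2 list had a median of -0.27, which turned to 0.12 with the 3 subsets weighted alike, with 0 of 15 genes past 1.5-fold, and Hmox1 was at 393 and 291 CPM. ERK feedback and target genes, which lie downstream of SHP2, had a median of 0.23 (-0.46 to 0.40), with 2 of 15 higher and 2 lower.

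Among the genes that met the rule for naming, Lpl had the highest ratio. It encodes lipoprotein lipase, which frees fatty acids from lipoproteins. It was at 14.7 CPM (10.9 to 19.3) in control, and 81.4 (69.2 to 95.1) in SHP099, a log2 ratio of 2.43 (2.01 to 2.96). A single SHP099 cell held 67 of the 159 UMIs, and with cells counted alike the ratio was 1.66. Lpl was found in 2.52% of control and 7.10% of SHP099 cells after drawing down (4.89% and 11.8% at full depth), and in 0 of 218 SHP099 T cells, which allows up to 1.38%. Of the lipid list, 4 of 20 genes were higher and 0 lower, with a median of -0.04, and Lpl, Cd36 and Spp1 were its 3 highest.

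Matrix genes were among the highest, and their ratios fell when few barcodes were left out. Col3a1, Dcn, Serpinh1 and Sparc, which encode or fold collagen-matrix proteins and are products of fibroblasts among other cells, had ratios of 1.49, 1.56, 1.79 and 1.14. Which cells of these tumours their RNA came from was not tested. Dcn was at 36.1 in control and 107 CPM in SHP099, below the 337 and 427 CPM of the T cells of the same libraries. Barcodes called doublets by Scrublet, 3 in control and 7 in SHP099, were then left out. The ratios became 0.05 for Col3a1, 0.68 for Dcn, 0.64 for Serpinh1 and -0.085 for Sparc. The direction of Sparc turned, while Dcn and Serpinh1 stayed past 1.5-fold. Dcn is itself one of the 7 fibroblast markers and made up 36.1 of their 62.7 CPM in control and 107 of their 170 CPM in SHP099.

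Among the genes lower in SHP099, Ifitm1, an antiviral membrane protein, was at 147 in control and 52.7 CPM in SHP099, a ratio of -1.47 (-1.80 to -1.17). C3, the central complement protein, was at 91.2 and 46.1 CPM, and Gla, the lysosomal galactosidase, at 76.2 and 37.4 CPM. Ly6i, which belongs to a family of near copies, Lmnb1 of the nuclear lamina, Chka, a choline kinase, and the receptor gene Slamf7 had ratios from -0.84 to -1.05. Haemoglobin, a sign of red cell RNA, was at 1.47 in control and 21.5 CPM in SHP099 and the mitochondrial share at 1.91% and 2.66%, and their part in these ratios was not tested.

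**Figure D5:**
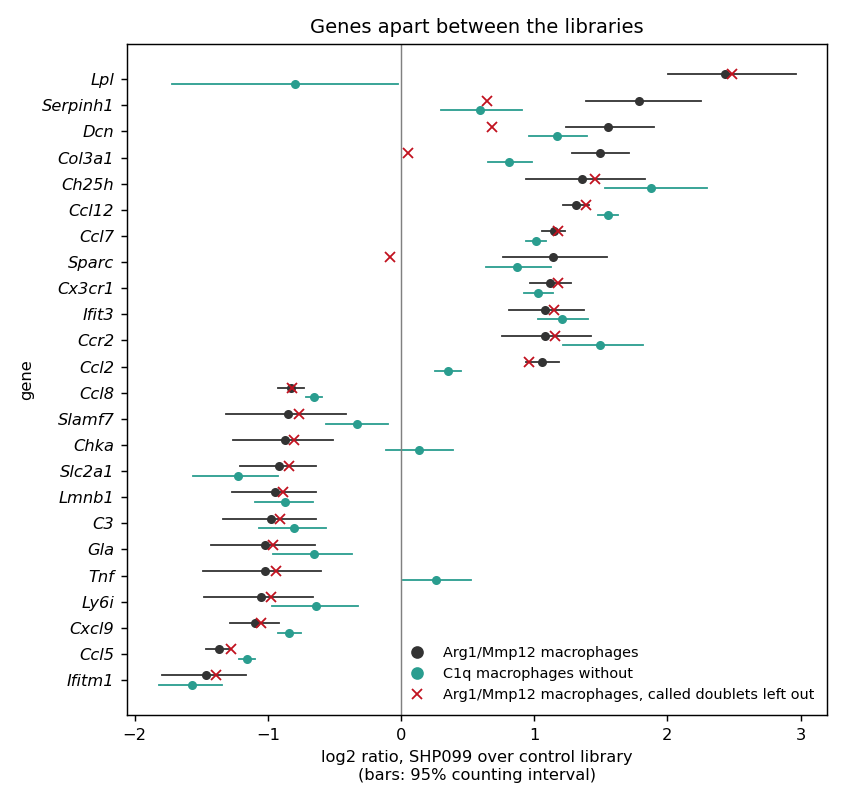
Each row is one of the 24 genes furthest apart between the libraries in the Arg1 and Mmp12 macrophages, and the horizontal axis is the log2 ratio of SHP099 over control (1 library each). Filled points with 95% counting intervals are the class and the other C1q macrophages, and crosses are the class with called doublets left out, which lie near 0 for Col3a1 (0.05) and Sparc (-0.085) and near the full value for most other genes.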

How the data were processed

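The authors deposited a filtered matrix of UMI counts per library (10x Chromium 3' assay), 1 for control and 1 for SHP099. They were made with Cell Ranger on mm10 (GRCm38), per the submitters' processing notes, and the file headers name output format 3.1.0. The gene annotation was not named there. The members, gene lists and rules were chosen with earlier results of these data known.

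The counts were used as deposited, and features that share a symbol were kept apart by identifier. UMIs were summed per library and class and divided by the class total (CPM, exact Poisson intervals). Log2 ratios used a prior of 0.5 CPM, and their intervals leave the prior out. Genes at 10 CPM or more in either sum were tested against a 1.5-fold difference, since 1 library per group allows no test. The class rule has no doublet step, and Scrublet calls (264 control and 198 SHP099 barcodes, 3.32% and 2.51%) were left out only as an alternative. The T cells used as background had at least 3 Cd3 UMIs. Before shares of cells with a UMI were computed, cells with 2000 UMIs or more were thinned to 2000 UMIs (seed 1) and the others left out. Genes of the class rule were left out of the 20 function lists; 12 marker lists served as checks.

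Named genes had 50 CPM or more in 1 sum, UMIs in 10% or more of its cells and the same direction with cells counted alike. Genes of the class rule, predicted genes, Xist, Y-linked genes and those of mitochondria, ribosomes, haemoglobin and immunoglobulins were left out. The 12 largest and 12 smallest ratios were named for SHP099 over control and for the class over other C1q macrophages (by the smaller of both libraries' ratios), and 8 and 8 for cells with over without Mmp12. The 8 and 8 of the thin Arg1-only over Mmp12-only comparison are not printed. The 3 highest and 3 lowest genes of a list and a fixed panel could also be named. Bnip3, Gclm, Prdx1 and Adgre1 were named where these rules did not reach them, after their values were seen.

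Alternatives were other UMI limits, doublets left out, a mitochondrial limit of 10%, drawing down before the class was cut, median-of-ratios scaling, cells or subsets weighted alike, a prior of 5 CPM and no filter on low values. The computation was tested on simulated data. Positions came from GENCODE M21 on GRCm38, and promoters from RefSeq. Tools were Python 3.11.15, numpy 2.4.6, scipy 1.17.1, pandas 2.3.3, scanpy 1.11.5 and matplotlib 3.10.9.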

Additional observations from a re-analysis of the deposited data

How the results depend on the processing

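With 1 library per group no replicate could be left out, and depth sets the counting interval of each single gene. No paired analysis was possible because each group has 1 library and no result comes from a test. Of 247 alternative list medians 232 moved by less than their interval, as did 8 of 10 share ratios and 314 of 396 single-gene ratios, and 7 of 14 gene counts kept within 1.5 times. With 4 Arg1 and Mmp12 UMIs or more, the share ratios of SHP099 over control were 0.488 of kept barcodes and 0.525 of C1q macrophages, Mmp12 was at 1.27, 395 genes were lower, and the medians against other C1q macrophages were -0.54 (control) and -0.80 (SHP099) for type I interferon and -0.75 (SHP099) for resident-like genes. With cells counted alike, SHP099 over control was -0.31 for Arg1, 0.78 for Mmp12 and 0.51 for the DNA replication list (0.42 as first computed, 2 of 17 genes higher and 1 lower). With a prior of 5 CPM, 235 genes were higher and 125 lower, and the control type I interferon median against other C1q macrophages was -0.35. With no filter on low values, 2346 genes were higher and 2060 lower. With the 3 subsets weighted alike, which rests on the 12 cells with Mmp12 alone, 1351 genes were higher and 1058 lower, the interferon-gamma median was -0.055, and 2 values reversed: the NRF2 median (0.12) and Cxcl9 (0.19). Sparc reversed to -0.085 without called doublets. Cells with 5 Mmp12 UMIs or more over cells with none gave medians of 1.26 (NRF2), 0.69 (hypoxia), -1.20 (MHC class II) and -1.13 (resident-like) in control and of -0.90 (MHC class II), -0.50 (type I interferon) and -0.96 (resident-like) in SHP099. Drawing down before that split gave -0.44 for type I interferon in SHP099. The cause of these shifts was not tested.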

Other observations

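Against the other C1q macrophages, the lysosomal proteases and hydrolases of the Arg1 and Mmp12 macrophages had medians of 0.17 in control and -0.05 in SHP099, with 4 of 23 genes higher and 1 lower in each library. Atp6v0d2, a proton pump subunit, and Ctsl, a cathepsin, were the 2 highest in both. Complement and Fc receptor genes had medians of 0.25 and 0.19, and C5ar1, the receptor for the complement fragment C5a, was the highest in both. Immediate-early and dissociation stress genes had medians of -0.12 in control, with 1 of 20 higher and 2 lower, and -0.29 in SHP099, with 1 higher and 7 lower. DNA replication genes had medians of -0.33 and -0.36, in cells limited to 1 UMI of 4 division genes. Phagocytes with C1q and monocyte UMIs, which number 489 in control and 587 in SHP099, carried Mmp12 at 94.9 in control and 43.0 CPM in SHP099, the opposite direction to the class described here, and Arg1 at 1028 and 673 CPM. Cells that passed every other limit but not that on division genes numbered 65 in control and 96 in SHP099.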
